A study of Mus musculus with 38 samples.

Results

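Autophagy delivers cytoplasm to the lysosome for breakdown, and the 44 genes described here encode its main parts and a set of lysosomal proteins. They were taken from a list of symbols and read in the RNA sequencing libraries of mouse B cells that were becoming plasma cells. The files write symbols in capitals (SQSTM1, MAP1LC3B, LAMP1), given below in mouse style. Of the 44, 40 were found under their listed symbol in each of the 3 kinds of deposited file, which hold 11441, 20650 and 20605 distinct gene names. The other 4 stand in the files under older symbols, and they are counted apart. Atg13 is listed as D2Ertd391e, Atg101 as 9430023L20Rik, Tfeb as Tcfeb and Tfe3 as Tcfe3, matched through the synonyms of RefSeq for GRCm38.p6.

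In autophagy, the Ulk1 kinase complex starts the formation of a membrane cup, and a lipid kinase complex with Becn1 marks that membrane with a phosphoinositide. Ubiquitin-like conjugation then attaches small proteins of the Atg8 family to the membrane, and receptors such as Sqstm1 bind both cargo and Atg8 proteins. The closed vesicle fuses with a lysosome, where cathepsins and other acid hydrolases digest its content, and the transcription factors Tfeb and Tfe3 control many lysosomal genes. In plasma cells, autophagy is known to support survival and to limit the size of the endoplasmic reticulum.

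The study followed B cell differentiation with a GFP reporter in the gene of Blimp1, a transcription factor of plasma cells encoded by Prdm1. The series holds 38 samples, of which 14 RNA libraries in 7 groups of 2 were analysed, and the 24 samples of chromatin assays are not analysed here. All groups were on the C57BL/6 background, and the labels do not state whether the pair of libraries in each group had separate animals or cultures as its source, so p-values here cover the spread between libraries, which may be technical. Values are RPKM, that is, reads divided by gene length in kilobases and by the size of the library. The number of reads behind a value in the GC-normalized files is unknown. Where groups are said not to overlap, this describes their 2 libraries each and adds no support to a call. The share of all genes without overlap was not computed.

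Blimp1-deficient pre-plasmablasts carried the genotype Blimp1 GFP/fl Cd23 Cre/+, in which Cre recombinase made under the Cd23 gene of B cells removes the floxed allele and the GFP allele serves as the reporter. They were cultured for 4 days with lipopolysaccharide (LPS), which activates B cells, and sorted as CD138-negative, GFP-positive and high for CD22. The control cultures, Blimp1 GFP/+ Cd23 Cre/+, also received LPS for 4 days and gave activated B cells (negative for CD138 and GFP), pre-plasmablasts (CD138-negative, GFP-positive) and plasmablasts (positive for both). Those 4 groups have GC-normalized files of 1 kind and shared 1 fit. A separate experiment on Blimp1 GFP/+ cells compared CD138-negative, GFP-positive pre-plasmablasts after 4 days of LPS together with GSK343, which blocks the repressive histone-modifying enzyme EZH2, with those given the solvent DMSO. Plasma cells were sorted directly from Blimp1 GFP/+ mice as lineage-negative cells positive for CD28, CD138 and GFP.

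The labelled cell types were checked against their markers. The 8 plasma cell markers summed to 94.6 and 261 RPKM in activated B cells, 3674 and 5629 RPKM in pre-plasmablasts, and 7076 and 12193 RPKM in plasmablasts. In ex vivo plasma cells they summed to 27869 and 23995 RPKM, and in Blimp1-deficient pre-plasmablasts to 456 and 580 RPKM. The 8 B cell markers summed to 4042 and 4278 RPKM in Blimp1-deficient pre-plasmablasts. Their sums were 2307 and 2469 RPKM in control pre-plasmablasts and 3396 and 3595 RPKM in activated B cells. By both sums the Blimp1-deficient group, sorted high for CD22, lay closer to activated B cells than to control pre-plasmablasts. All 8 B cell markers reached 1 RPKM in a library of each control group, of the Blimp1-deficient group and of the DMSO group. In the GSK343 group 7 did, and in plasma cells 6.

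The 40 genes covered a wide range of levels. In control pre-plasmablasts their group means ran between 1.96 RPKM (Atg10) and 891 RPKM (Ctsz), with a median of 23.3 RPKM, and 35 of 40 were at 10 RPKM or more. Among all genes of the same files that reached 1 RPKM, the median was 13.8 RPKM in these cells. Sqstm1, which encodes the cargo receptor p62, had a mean of 887 RPKM with libraries on both sides of those of Ctsz, and the Atg8 gene Gabarap followed with 413 RPKM, with libraries that overlapped those of Ctsd, the aspartic protease cathepsin D. The conjugation enzymes lay low by comparison, with 11 genes that together summed to 139 and 126 RPKM. The 10 lysosomal genes summed to 2079 and 2009 RPKM. In a bulk library, fewer cells of a type and less RNA per cell cannot be told apart.

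**Figure D1:**
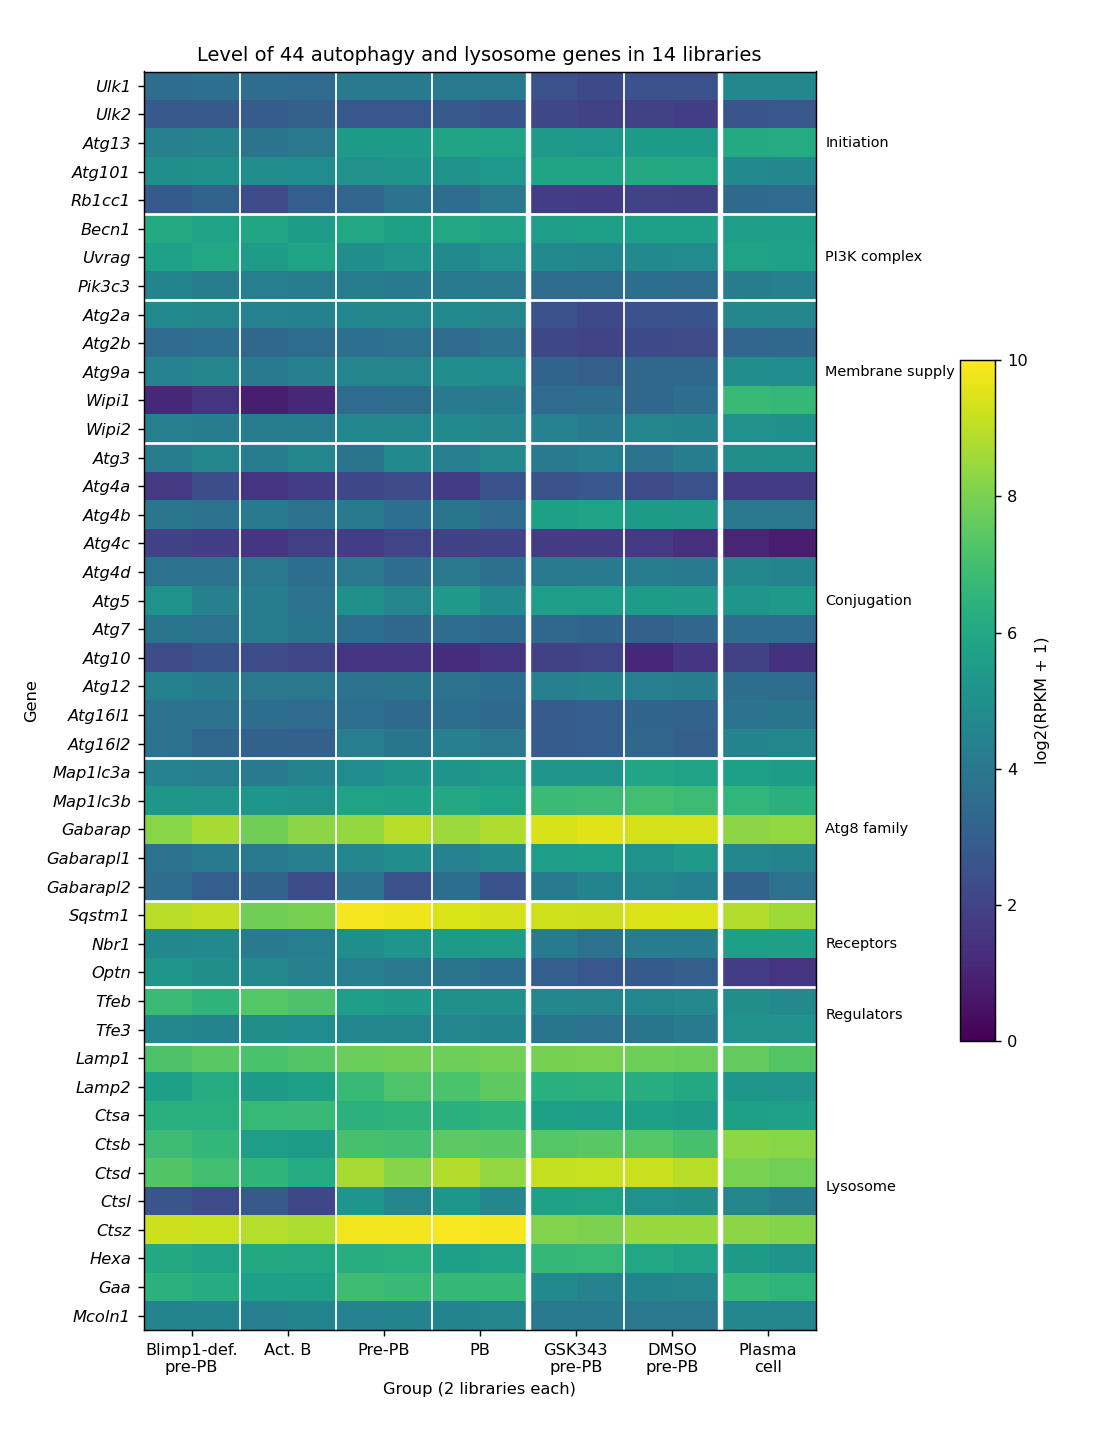
Level of all 44 genes (rows, grouped by role) in the 14 libraries (columns, 2 per group) as log2(RPKM + 1), with brighter colour for higher levels and thick white lines between kinds of file. Ctsz and Sqstm1 are the brightest rows in pre-plasmablasts, with means of 891 and 887 RPKM, and Wipi1 is dark in Blimp1-deficient pre-plasmablasts and activated B cells.

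Promoter windows of RefSeq (GRCm38.p6, 250 bases before to 50 bases after a gene's start) were available for 37 of the 44 genes and were searched for the letters bound by Tfeb and Tfe3 and by Blimp1. The long form TCACGTGA, which reads the same on both strands and contains the core CACGTG, lay in the windows of 4 of the 37 (10.8%), against 1.12% of all 27025 genes with a window. CACGTG itself lay in 9 of 37 (24.3%), against 8.09% of all genes. AGNGAAAG, a form of the Blimp1 motif searched on both strands, lay in 5 of 37 (13.5%), against 9.91% of all genes. The stretches below show all 4 genes with the long form, Lamp1 with 4 copies of the core, and Atg13 and Uvrag, which hold the Blimp1 letters and moved in opposite directions in the results that follow. Capitals mark the searched letters, which for Atg3 include a separate copy of the core, and each stretch is printed 5′ to 3′ on the strand of its gene. Ctsa holds another TCACGTGA just past its start, outside the stretch. Mcoln1 and Ctsd also hold a separate copy of the core, 71 and 245 bases before the start, that does not lie whole in the stretch. A match is a description of letters, not a binding site.
Ctsd, chr7:142387895-142387950, minus strand: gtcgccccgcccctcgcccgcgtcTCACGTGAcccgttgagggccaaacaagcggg
Ctsa, chr2:164833736-164833772, plus strand: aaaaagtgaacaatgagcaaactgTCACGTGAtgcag
Atg3, chr16:45158733-45158788, plus strand: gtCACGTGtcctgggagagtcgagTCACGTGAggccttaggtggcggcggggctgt
Mcoln1, chr8:3500449-3500504, plus strand: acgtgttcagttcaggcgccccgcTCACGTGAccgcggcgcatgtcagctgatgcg
Lamp1, chr8:13159090-13159160, plus strand: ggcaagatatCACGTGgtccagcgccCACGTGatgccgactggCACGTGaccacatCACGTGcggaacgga
Atg13, chr2:91710593-91710646, minus strand: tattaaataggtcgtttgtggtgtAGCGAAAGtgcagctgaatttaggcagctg
Uvrag, chr7:99141323-99141378, minus strand: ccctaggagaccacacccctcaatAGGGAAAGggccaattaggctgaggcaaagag
The core CACGTG was also found for Atg5, Atg7, Ctsl and Gaa, and AGNGAAAG also for Atg4a, Nbr1 and Tfeb.

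The first comparison asked how these genes differ once the Blimp1 reporter is on. Of the 40 genes, 17 were higher and 4 lower in pre-plasmablasts than in activated B cells at an adjusted p below 0.05 (limma on log2(RPKM + 1), Benjamini-Hochberg over all genes tested). The share of all 10473 tested genes was 20.2% higher and 28% lower, 48.2% in both directions together, so 42.5% of the 40 were called higher and 10% lower. The library numbers in the titles fall into 2 ranges, called runs here, whose meaning the labels do not state. With these runs as a block, 25 were higher and 5 lower, beside 69.6% of all genes called (27.9% higher, 41.7% lower). In the fit without the block, the median log2 fold change of the 40 genes was 0.45, beside -0.12 over all genes tested. Changes of at least 2-fold were called upward for 8 of the 40, against 8.56% of all genes, and downward for 0 of the 40, against 8.25%. By role, the calls upward were 7 of 10 lysosomal genes, 3 of 5 membrane supply genes, 2 of 3 receptors, 2 of 5 Atg8 genes, 2 of 3 initiation genes and 1 of 11 conjugation genes.

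Plasmablasts, set against activated B cells, gave 18 of 40 higher and 5 lower, beside 21.3% and 33.9% of all genes, and a median log2 fold change of 0.42 beside -0.18. Here 12 of the 40 were at least 2-fold higher, against 10.3% of all genes. The share called in both directions was 55.1% of all genes. Downward, 0 of the 40 reached 2-fold, against 11.9% of all genes. With median-of-ratios scaling, a common rescaling of each library, 23 were higher and 3 lower, beside 26.5% and 25.1% of all genes (88.5% of the calls upward, beside 78.3% without scaling, and for all genes 51.4% beside 38.6%). With the runs as a block 22 were higher and 9 lower, beside 75.4% of all genes called (28% higher, 47.4% lower). Of the 18 calls upward 16 held in every fit with 1 library left out (not Atg5 or Rb1cc1), and of the 5 downward Atg10 did. The calls of Atg7 and Optn were lost without the first activated B cell or the second plasmablast library, that of Uvrag without the first plasmablast library, and that of Ctsa without the first plasmablast or either activated B cell library (adjusted p at most 0.139). Both comparisons use the same activated B cell libraries.

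Between plasmablasts and pre-plasmablasts, limma called 0 of the 40 genes in either direction, while 0.716% of all genes were called higher and 1.62% lower (2.34% together, 0.201% and 0.783% with at least 2-fold change). At an unadjusted p below 0.05 it gave 4 of the 40 higher (Atg9a, Wipi1, Nbr1 and Ctsb) and 2 lower (Sqstm1 and Hexa), beside 16.3% of all genes. With the runs as a block, 7 of the 40 were higher in plasmablasts and 4 lower, beside 20.3% of all genes called (7% higher, 13.3% lower). The higher ones were Wipi1 (0.59), Ctsb (0.40), Nbr1 (0.39), Lamp2 (0.33), Atg9a (0.32), Atg5 (0.30) and Ctsd (0.20), and the lower ones Hexa (-0.55), Optn (-0.42), Sqstm1 (-0.41) and Uvrag (-0.19). Tfeb (-0.49, adjusted p = 0.005) and Atg13 (0.34, adjusted p = 0.0135) passed with the block and not without it.

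Among lysosomal genes, Ctsd had 92.95 and 70.1 RPKM in the 2 libraries of activated B cells, 409 and 287 RPKM in pre-plasmablasts and 464 and 333 RPKM in plasmablasts. Every pre-plasmablast and plasmablast library was above both activated B cell libraries, with a log2 fold change of 2.07 ± 0.25 (SE) between pre-plasmablasts and activated B cells (adjusted p = 0.000748). Ctsl, the cysteine protease cathepsin L, had 5.93 and 3.41 RPKM in activated B cells, 37.0 and 22.6 RPKM in pre-plasmablasts and 38.5 and 23.5 RPKM in plasmablasts. In each of these groups library 1 was the higher, and its rise of 2.44 ± 0.35 on the log2 scale (adjusted p = 0.00156) was larger than that spread. Ctsb, the cysteine protease cathepsin B, had 46.9 and 45.2 RPKM in activated B cells, 137 and 126 RPKM in pre-plasmablasts and 178 and 171 RPKM in plasmablasts. The groups did not overlap, and the log2 fold change was 1.49 ± 0.10 between pre-plasmablasts and activated B cells (adjusted p = 7.59e-05). In plasmablasts, set against activated B cells, the log2 fold changes were 2.27 for Ctsd (adjusted p = 0.000382), 2.49 for Ctsl (adjusted p = 0.00113) and 1.90 for Ctsb (adjusted p = 2.32e-05).

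Of the 2 major lysosomal membrane glycoproteins, Lamp2 had 42.2 and 50.2 RPKM in activated B cells, 108 and 149 RPKM in pre-plasmablasts and 141 and 181 RPKM in plasmablasts. It was higher in pre-plasmablasts by 1.45 ± 0.24 on the log2 scale (adjusted p = 0.00294), and here library 2 was the higher in each group. In plasmablasts it was higher by 1.77 (adjusted p = 0.00095). Lamp1 moved less, with 138 and 158 RPKM in activated B cells, 208 and 228 RPKM in pre-plasmablasts and 219 and 232 RPKM in plasmablasts (0.56 ± 0.12, adjusted p = 0.00801, and 0.0535 without the first activated B cell library). Gaa, the acid glucosidase that breaks down glycogen, rose by 1.16 on the log2 scale, and Ctsz, a carboxypeptidase, by 0.98. Ctsa, a carboxypeptidase that also protects other hydrolases, went the other way, with 103 and 107 RPKM in activated B cells, 84.7 and 90.3 RPKM in pre-plasmablasts and 80.6 and 89.4 RPKM in plasmablasts. Its log2 fold change was -0.26 ± 0.09 (adjusted p = 0.0472), and with median-of-ratios scaling it was -0.15 and not called (adjusted p = 0.214). Hexa, a subunit of hexosaminidase, and the lysosomal calcium channel gene Mcoln1 did not pass, with log2 fold changes of 0.25 and 0.06 (for Hexa, adjusted p = 0.047 with the block and 0.0403 with scaling). Among the printed promoters, the long form TCACGTGA stands in genes that were called higher (Ctsd), called lower (Ctsa) and not called (Atg3 and Mcoln1).

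Among receptors, Sqstm1 had 227 and 244 RPKM in activated B cells, 922 and 852 RPKM in pre-plasmablasts and 687 and 650.5 RPKM in plasmablasts. Both pre-plasmablast libraries were above all others of the control cultures, and the log2 fold change against activated B cells was 1.91 ± 0.10 (adjusted p = 3.39e-05). In plasmablasts relative to pre-plasmablasts its log2 fold change was -0.41 ± 0.10 (adjusted p = 0.115), and with the runs as a block the adjusted p was 0.00901. Nbr1, a second receptor for ubiquitinated cargo, had 16.8 and 19.0 RPKM in activated B cells, 30.4 and 36.3 RPKM in pre-plasmablasts and 42.3 and 45.7 RPKM in plasmablasts, and its groups did not overlap. It was higher by 0.86 in pre-plasmablasts (adjusted p = 0.00131). Optn, which encodes the receptor optineurin, had 25.2 and 19.3 RPKM in activated B cells, 18.4 and 14.8 RPKM in pre-plasmablasts and 13.3 and 11.1 RPKM in plasmablasts. Of its comparisons with activated B cells, the one of plasmablasts passed, with a log2 fold change of -0.81 ± 0.19 (adjusted p = 0.0113), and the one of pre-plasmablasts, at -0.40, gave an adjusted p of 0.136, and of 0.000738 with the block.

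On the log2(RPKM + 1) scale the largest fold change of the list was in Wipi1, which encodes a reader of the phosphoinositide on forming autophagosomes. It had 0.772 and 1.22 RPKM in activated B cells, 10.3 and 10.6 RPKM in pre-plasmablasts and 16.0 and 16.5 RPKM in plasmablasts. The groups did not overlap, and the log2 fold change was 2.53 ± 0.16 between pre-plasmablasts and activated B cells (adjusted p = 5.53e-05). In plasmablasts it was 3.12 ± 0.16 (adjusted p = 1.78e-05). The pseudocount of 1 understates the change of a gene this low in activated B cells and sets its rank: in pre-plasmablasts the log2 fold change of Wipi1 was 3.30 with a pseudocount of 0.1, and 1.53 with a pseudocount of 4, where Ctsd (2.03), Ctsl (1.95) and Sqstm1 (1.89) were above it. Its relative Wipi2 rose by 0.47, and Atg9a, the membrane protein of the seed vesicles, by 0.29 (adjusted p = 0.0461), a call that was lost when any single library was left out. The lipid transfer genes Atg2a and Atg2b gave log2 fold changes of 0.23 and 0.28 and did not pass (adjusted p = 0.0178 and 0.00787 with the block, and for Atg2b 0.0391 with scaling).

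The initiation complex moved unevenly. Ulk1, its kinase, had 10.8 and 10.2 RPKM in activated B cells, 16.2 and 16.5 RPKM in pre-plasmablasts and 17.1 and 16.8 RPKM in plasmablasts, and the call upward in pre-plasmablasts was 0.59 ± 0.09 (adjusted p = 0.00179). Atg13, the regulatory partner of Ulk1 and one of the genes found under an older symbol, had 13.4 and 14.6 RPKM in activated B cells, 42.8 and 43.2 RPKM in pre-plasmablasts and 55.9 and 53.1 RPKM in plasmablasts. The groups did not overlap, and its log2 fold change of 1.55 ± 0.09 (adjusted p = 4.58e-05) was larger than that of Ulk1. In plasmablasts it was 1.89 ± 0.09 (adjusted p = 1.66e-05), and Atg101, the complex member also found under an older symbol, was called at 0.34 (adjusted p = 0.0279, and at most 0.146 with a library left out). In pre-plasmablasts the kinase paralog Ulk2 had a log2 fold change of -0.26 and Atg101 one of 0.23, and neither passed (Atg101 had an adjusted p of 0.0197 with the block and 0.0287 with median-of-ratios scaling). Rb1cc1, the scaffold of the complex, was called at 0.89 ± 0.30 (adjusted p = 0.0478), and that call was lost without any one of 6 of the 8 libraries, with a largest adjusted p of 0.222.

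The lipid kinase complex and the conjugation machinery held 3 of the 4 genes that fell among the 40, beside Ctsa, and Tfeb is counted apart. Uvrag, a partner of Becn1, had 44.8 and 55.4 RPKM in activated B cells, 30.6 and 36.6 RPKM in pre-plasmablasts and 26.3 and 32.4 RPKM in plasmablasts, with a log2 fold change of -0.56 ± 0.17 in pre-plasmablasts (adjusted p = 0.0303). Atg7, the activating enzyme of both conjugation reactions, had 17.3 and 13.6 RPKM in activated B cells, 11.3 and 9.18 RPKM in pre-plasmablasts and 10.8 and 9.65 RPKM in plasmablasts (-0.55 ± 0.15, adjusted p = 0.0238). Atg10, the enzyme that joins Atg12 to Atg5, had 3.98 and 3.26 RPKM in activated B cells, 1.90 and 2.02 RPKM in pre-plasmablasts and 1.45 and 1.85 RPKM in plasmablasts (-0.64 ± 0.15, adjusted p = 0.0118). In each of these genes both pre-plasmablast libraries were below both activated B cell libraries. Each of the 4 calls downward was lost when some library was left out. That of Atg7 was lost without the first activated B cell or the second pre-plasmablast library, that of Atg10 without the first library of either group, that of Uvrag without the second activated B cell or the first pre-plasmablast library and that of Ctsa without any one of the 8 (adjusted p at most 0.193). With median-of-ratios scaling the calls of Uvrag, Atg7 and Ctsa were lost, and the counts became 21 of 40 higher and 1 lower, beside 23.2% and 21.9% of all genes (95.5% of the calls upward, beside 81% without scaling, and for all genes 51.5% beside 41.9%). That scaling moved the all-gene median to -0.02 for pre-plasmablasts and -0.01 for plasmablasts, each against activated B cells. Atg16l2, a relative of the conjugation scaffold Atg16l1, rose by 1.00 (adjusted p = 0.00589), and Atg5, the partner of Atg12, was called in plasmablasts (1.12 ± 0.34, adjusted p = 0.0284, and 0.144 at most without the second activated B cell or the first plasmablast library). In pre-plasmablasts Atg5 gave 0.82 ± 0.34 (adjusted p = 0.087, and 3.69e-05 with the block). In plasmablasts the log2 fold changes were -0.75 for Uvrag, -0.55 for Atg7 and -0.80 for Atg10, and all 3 were called. The core lipid kinase genes Becn1 and Pik3c3, with log2 fold changes of 0.12 and -0.05, did not pass, nor did Atg3, Atg12, Atg16l1 or the 4 proteases of the Atg4 family, which lay between -0.15 and 0.52.

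In the Atg8 family, Map1lc3b, which encodes the common autophagosome marker LC3B, had 37.2 and 34.5 RPKM in activated B cells, 55.5 and 51.4 RPKM in pre-plasmablasts and 64.6 and 54.9 RPKM in plasmablasts. It was higher in pre-plasmablasts by 0.56 ± 0.11 on the log2 scale (adjusted p = 0.00549), with no overlap with activated B cells. Its paralog Map1lc3a rose by 0.74 (adjusted p = 0.0115, and at most 0.0624 without the first activated B cell or the second pre-plasmablast library). Gabarapl1 had 15.7 and 19.4 RPKM in activated B cells, 22.9 and 28.6 RPKM in pre-plasmablasts and 20.8 and 26.3 RPKM in plasmablasts. The groups of activated B cells and pre-plasmablasts did not overlap, yet the log2 fold change of 0.53 ± 0.20 gave an adjusted p of 0.065, 0.000105 with the runs as a block and 0.0319 with median-of-ratios scaling. Gabarap gave 0.62 and Gabarapl2 0.43, neither of them called (with the block, adjusted p = 5.79e-05 and 0.0418, and with scaling 0.0458 for Gabarap).

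Of the transcription factors of lysosomal genes, Tfeb was lower in pre-plasmablasts and plasmablasts than in activated B cells. It had 162 and 147 RPKM in activated B cells, 47.7 and 41.0 RPKM in pre-plasmablasts and 31.0 and 31.3 RPKM in plasmablasts. The 3 groups did not overlap, and the log2 fold changes against activated B cells were -1.78 ± 0.13 in pre-plasmablasts (adjusted p = 9.54e-05) and -2.27 ± 0.13 in plasmablasts (adjusted p = 2.75e-05). Tfe3 had 30.1 and 27.7 RPKM in activated B cells, 24.4 and 22.8 RPKM in pre-plasmablasts and 22.8 and 22.0 RPKM in plasmablasts. Its log2 fold change was -0.28 ± 0.10 in pre-plasmablasts (adjusted p = 0.0518, and 0.00305 with the block) and -0.35 ± 0.10 in plasmablasts (adjusted p = 0.0211, at most 0.117 without the first activated B cell or either plasmablast library, and 0.23 with median-of-ratios scaling). These are transcript levels, and the activity of both factors is known to be set largely by where the protein sits in the cell.

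**Figure D2:**
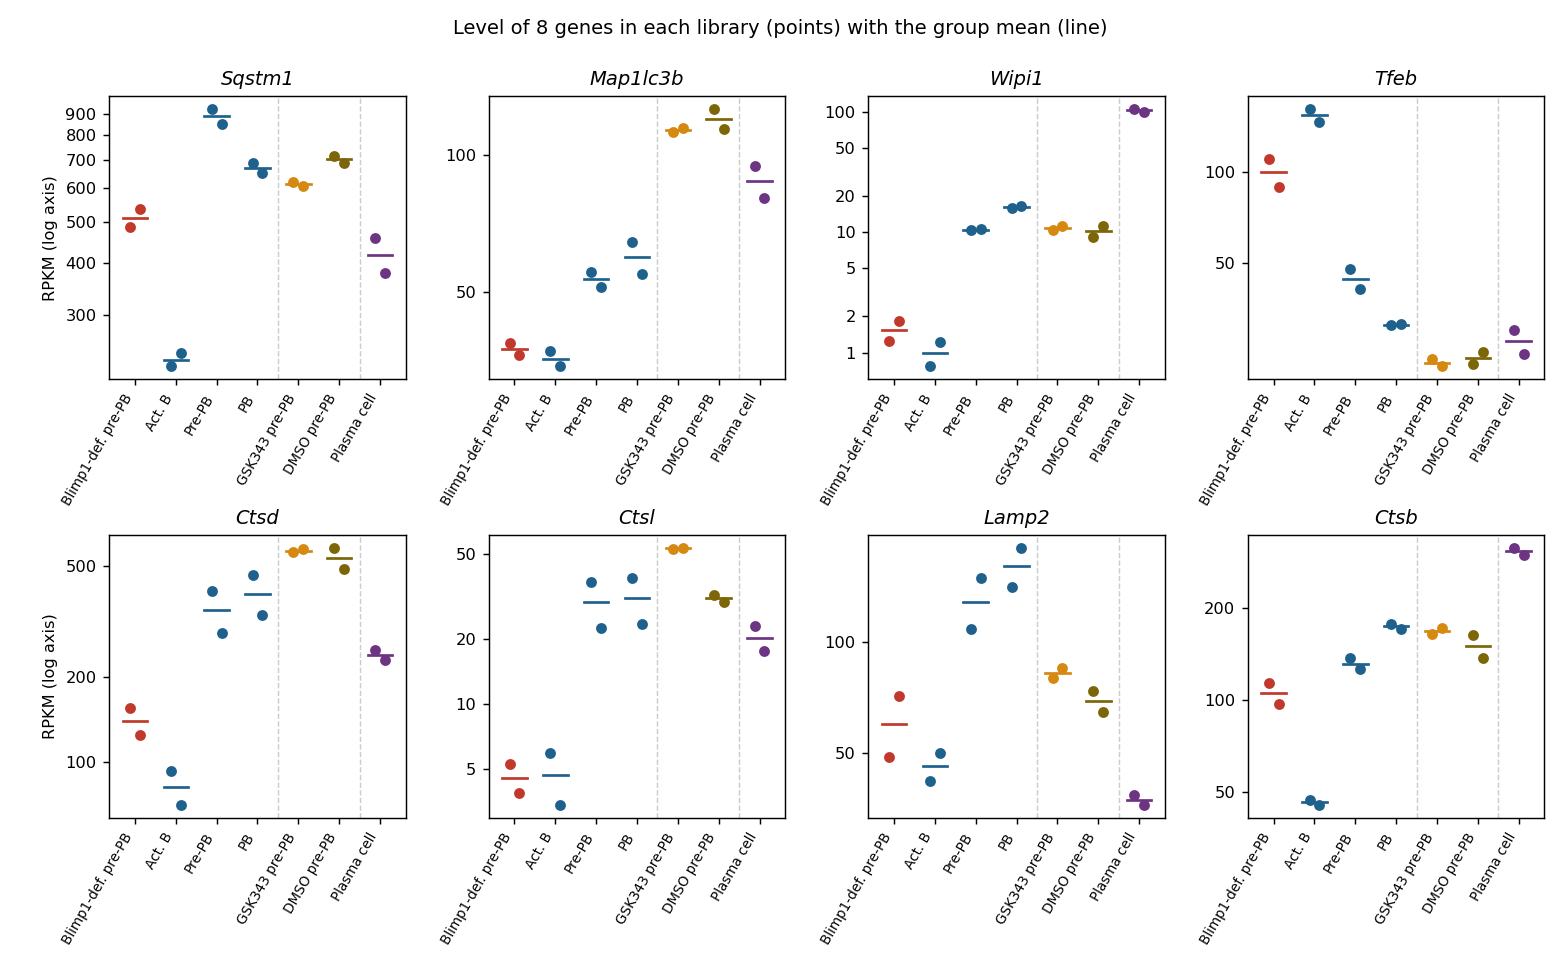
RPKM of 8 genes on a log axis, with a point for each library and a line for the mean of its group, and dashed lines between kinds of file. Among the cultures with GC-normalized values, Ctsd, Ctsl, Wipi1, Lamp2, Ctsb, Sqstm1 and Map1lc3b are higher in pre-plasmablasts and plasmablasts than in activated B cells, and Tfeb is lower.

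The same direction was found in part of the wider pathway, given by 4 lists of other genes. Of all tested genes, 20.2% were higher and 28% lower in pre-plasmablasts than in activated B cells. Of 17 tested subunits of the V-ATPase, the proton pump that acidifies the lysosome, 7 were higher and 0 lower in pre-plasmablasts than in activated B cells, with a median log2 fold change of 0.26. The largest changes were in the membrane subunits Atp6v0a2 (1.52) and Atp6v0a1 (1.47) and in the accessory subunit Atp6ap2 (1.18). Other lysosomal hydrolases and activators split, with 20 higher and 12 lower of 41. The thioesterase gene Ppt2 (2.83), the glucuronidase gene Gusb (1.81) and the galactosidase gene Gla (1.81) rose most, and the phosphatase gene Acp5 (-1.90) and the cathepsin gene Ctso (-1.35) were among those that fell. Of 27 other lysosomal membrane proteins, 12 were higher and 2 lower, led by the channel gene Mcoln2 (4.08), Laptm4a (1.59) and Cd63 (1.30), with Abca2 (-1.37) and Tmem55b (-0.80) lower. Of 33 other autophagy genes, 12 were higher and 2 lower, led by Trp53inp1 (2.71), Vmp1 (1.16) and Wdr45 (0.91), with the vesicle transport genes Fyco1 (-0.74) and Vps18 (-0.61) lower. With the runs as a block, the fit that called 69.6% of all genes, 12 V-ATPase genes were higher and 3 lower, 22 hydrolases and activators higher and 14 lower, 18 membrane proteins higher and 4 lower, and 13 other autophagy genes higher and 8 lower.

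In plasmablasts relative to activated B cells the 4 lists gave 8 higher and 3 lower of 17 V-ATPase genes, 19 and 14 of 41 hydrolases and activators, 11 and 5 of 27 membrane proteins, and 10 and 6 of 33 other autophagy genes. The shares of all genes in that comparison were 21.3% higher and 33.9% lower. Of the V-ATPase genes, Atp6v0a2 (2.20), Atp6v0a1 (1.53) and Atp6ap2 (1.07) rose most, and the subunits Atp6v1b2 (-0.65), Atp6v1c1 (-0.61) and Atp6v1a (-0.58) fell. Ppt2 (3.23), Gusb (2.56) and Glb1 (2.03) led the hydrolases upward, with Ctsh (-1.52) and Acp5 (-1.38) among those downward. Membrane proteins were led by Mcoln2 (4.44), Laptm4a (2.13) and Mcoln3 (1.53), with Abca2 (-1.81), Laptm5 (-0.94) and Tmem55b (-0.75) lower. Other autophagy genes were led by Trp53inp1 (3.71), Wdr45 (1.32) and Vmp1 (1.19), with Snap29 (-0.98), Fyco1 (-0.91) and Stx17 (-0.81) lower. Between plasmablasts and pre-plasmablasts the calls in these lists were Atp6v0a2 (0.68), Gusb (0.75) and Trp53inp1 (1.00) upward and Laptm5 (-1.42) downward, beside 0.716% of all genes called higher and 1.62% lower. With the block, which called 20.3% of all genes in that comparison, the 4 lists gave 1, 7, 4 and 4 genes higher and 4, 3, 4 and 3 lower.

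Markers of other cells moved across these stages too. The 3 of 10 T cell markers in the files summed to 1.54 and 1.43 RPKM in activated B cells, 9.62 and 9.15 RPKM in pre-plasmablasts and 19.0 and 17.2 RPKM in plasmablasts. Against activated B cells, Cd28, also a marker of the plasma cell sort, was higher by 2.15 in pre-plasmablasts and 3.27 in plasmablasts on the log2 scale, Lat was higher in pre-plasmablasts (0.76) and Cd8b1 in plasmablasts (0.33). The 4 of 9 NK or dendritic cell markers summed to 59.3 and 51.7 RPKM in activated B cells, 25.5 and 21.7 RPKM in pre-plasmablasts and 9.67 and 9.57 RPKM in plasmablasts. The 3 of 10 erythroid or megakaryocyte markers summed to 18.6 and 13.1 RPKM in activated B cells, 3.45 and 4.21 RPKM in pre-plasmablasts and 2.15 and 2.36 RPKM in plasmablasts. The 5 of 18 myeloid markers summed to 44.4 and 37.8 RPKM in activated B cells, 34.3 and 35.0 RPKM in pre-plasmablasts and 32.2 and 30.4 RPKM in plasmablasts, and of the 4 tested, 3 were lower and Cd68 higher in both later stages. None of these markers was at 0 in both libraries of a group, but these files list 11441 gene names, against 20650 in the inhibitor files. Markers left out of them have no value here, so the lack of 0 values does not show that other cells were present. Their part in the results was not tested.

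The comparison of Blimp1-deficient with control pre-plasmablasts asked which of these differences depend on Blimp1, but genotype and the CD22 gate cannot be told apart in it. The targeted gene was at 199 and 171 RPKM in Blimp1-deficient pre-plasmablasts, against 429 and 327 RPKM in control pre-plasmablasts. That value counts transcripts of the GFP allele as well, so it checks the genotype only in part. Cd22, the gate marker, was at 345 and 309 RPKM in Blimp1-deficient pre-plasmablasts and 28.5 and 38.3 RPKM in control pre-plasmablasts.

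Of the 40 genes, 16 were lower and 4 higher in Blimp1-deficient than in control pre-plasmablasts, while 16.1% of all tested genes were lower and 24.4% higher (40.4% in both directions). That is 40% of the genes lower and 10% higher. The median log2 fold change was -0.18, beside 0.12 over all genes tested. The all-gene value became 0.00 with median-of-ratios scaling, where 18 of the 40 were lower and 3 higher, beside 19.6% and 17.7% of all genes. A fall of at least 2-fold was called for 4 of the 40, against 5.67% of all genes, and a rise of at least 2-fold for 0 of the 40, against 6.99%. With the runs as a block, 20 were lower and 7 higher, beside 65.2% of all genes called (24.9% lower, 40.4% higher). The genes that fell were 8 of 10 lysosomal genes, 3 of 5 Atg8 genes, 2 of 3 receptors, 2 of 5 membrane supply genes and 1 of 3 initiation genes. This comparison shares its control pre-plasmablast libraries with the one against activated B cells, so the 2 sets of values stand side by side and were not correlated.

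Ctsl had the largest fall on the log2(RPKM + 1) scale, with 5.25 and 3.87 RPKM in Blimp1-deficient pre-plasmablasts, against 37.0 and 22.6 RPKM in control pre-plasmablasts. Both Blimp1-deficient libraries were below both control libraries, with a log2 fold change of -2.44 ± 0.35 (adjusted p = 0.00211). Wipi1 had 1.25 and 1.82 RPKM in Blimp1-deficient pre-plasmablasts, against 10.3 and 10.6 RPKM in control pre-plasmablasts (-2.18 ± 0.16, adjusted p = 0.000146), and with a pseudocount of 0.1 its log2 fold change of -2.71 was past the -2.66 of Ctsl. Ctsd had 156 and 125 RPKM in Blimp1-deficient pre-plasmablasts, against 409 and 287 RPKM in control pre-plasmablasts (-1.29 ± 0.25, adjusted p = 0.0073). None of these pairs of groups overlapped. Lamp2 had 48.9 and 71.4 RPKM in Blimp1-deficient pre-plasmablasts, against 108 and 149 RPKM in control pre-plasmablasts (-1.09 ± 0.24, adjusted p = 0.0118). Sqstm1 had 486 and 536 RPKM in Blimp1-deficient pre-plasmablasts, against 922 and 852 RPKM in control pre-plasmablasts (-0.80 ± 0.10, adjusted p = 0.00133). These groups did not overlap either, and the Lamp2 call was lost without the first Blimp1-deficient or the second control pre-plasmablast library (adjusted p at most 0.0633).

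Of the Atg8 family, Gabarapl1 had 12.6 and 16.6 RPKM in Blimp1-deficient pre-plasmablasts, against 22.9 and 28.6 RPKM in control pre-plasmablasts (-0.78 ± 0.20, adjusted p = 0.0199). Map1lc3b had 38.7 and 36.5 RPKM in Blimp1-deficient pre-plasmablasts, against 55.5 and 51.4 RPKM in control pre-plasmablasts (-0.50 ± 0.11, adjusted p = 0.0116). Lamp1 had 149 and 172 RPKM in Blimp1-deficient pre-plasmablasts, against 208 and 228 RPKM in control pre-plasmablasts (-0.44 ± 0.12, adjusted p = 0.0245). In all 3 the groups did not overlap, and each call was lost in 2 or more fits with a library left out, with adjusted p at most 0.126. Ulk1 fell by 0.49, Ctsz by 0.60, Gaa by 0.52, Ctsb by 0.33, Hexa by 0.36, Map1lc3a by 0.66, Wipi2 by 0.40 and Nbr1 by 0.38 on the log2 scale. Of the 16 calls downward, 6 held in every fit with a library left out (Ctsd, Ctsl, Ctsz, Sqstm1, Ulk1 and Wipi1). Those of Ctsb, Hexa and Nbr1 were lost in 7 of 8 such fits, that of Gaa without the first control pre-plasmablast library, and those of Map1lc3a and Wipi2 in 3 and 4 fits (adjusted p at most 0.211). Atg13 had 19.5 and 21.4 RPKM in Blimp1-deficient pre-plasmablasts, against 42.8 and 43.2 RPKM in control pre-plasmablasts, and fell by 1.04 (adjusted p = 0.000307).

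The 4 genes that were higher come from other steps. Optn had 38.4 and 29.7 RPKM in Blimp1-deficient pre-plasmablasts, against 18.4 and 14.8 RPKM in control pre-plasmablasts (0.99 ± 0.19, adjusted p = 0.00748). Atg10 had 3.93 and 4.99 RPKM in Blimp1-deficient pre-plasmablasts, against 1.90 and 2.02 RPKM in control pre-plasmablasts (0.88 ± 0.15, adjusted p = 0.00416). Uvrag had 52.2 and 61.4 RPKM in Blimp1-deficient pre-plasmablasts, against 30.6 and 36.6 RPKM in control pre-plasmablasts (0.74 ± 0.17, adjusted p = 0.0128). The Blimp1-deficient libraries were the higher ones in each case. Atg12, the ubiquitin-like partner of Atg5, had 20.0 and 16.99 RPKM in Blimp1-deficient pre-plasmablasts, against 13.2 and 13.5 RPKM in control pre-plasmablasts (0.44 ± 0.11, adjusted p = 0.0204), and was not called with median-of-ratios scaling (adjusted p = 0.0687). The call of Uvrag was lost without the second Blimp1-deficient or the first control library (adjusted p at most 0.073), and that of Atg12 without the first Blimp1-deficient or either control library (adjusted p at most 0.104). Tfeb, counted apart, had 111 and 89.0 RPKM in Blimp1-deficient pre-plasmablasts, against 47.7 and 41.0 RPKM in control pre-plasmablasts. Its libraries did not overlap, and the log2 fold change was 1.15 ± 0.13 (adjusted p = 0.000855). Tfe3 had 23.5 and 21.0 RPKM in Blimp1-deficient pre-plasmablasts, against 24.4 and 22.8 RPKM in control pre-plasmablasts, with an overlap of the groups and a log2 fold change of -0.08 ± 0.10 (adjusted p = 0.546).

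**Figure D3:**
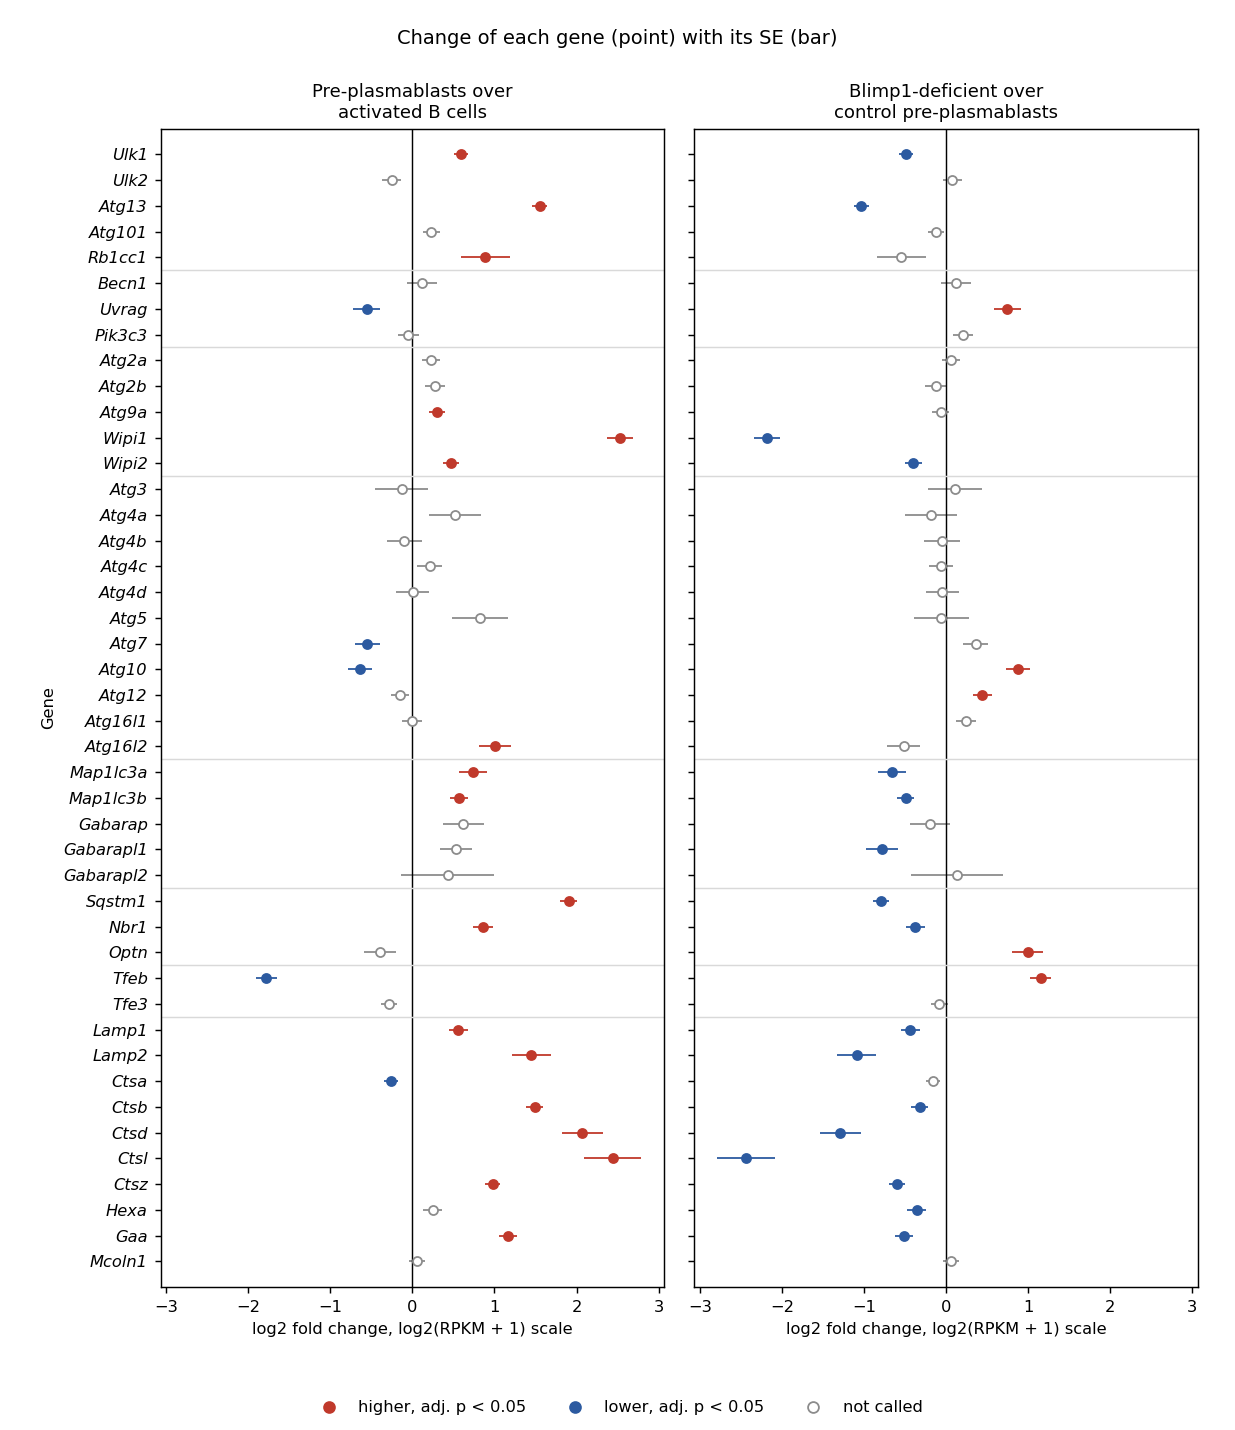
Log2 fold change of each gene (point) with its SE (bar) for control pre-plasmablasts over activated B cells (left) and Blimp1-deficient over control pre-plasmablasts (right), filled red or blue where the adjusted p was below 0.05. Wipi1, Ctsl and Ctsd are furthest right in the left panel (2.53, 2.44 and 2.07) and furthest left in the right panel (-2.18, -2.44 and -1.29), and both panels share the control pre-plasmablast libraries.

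The wider pathway is set beside all tested genes, of which 16.1% were lower and 24.4% higher in Blimp1-deficient than in control pre-plasmablasts. Of 17 V-ATPase genes 6 were lower and 1 higher, led by Atp6v0a1 (-1.53), Atp6v0a2 (-1.29) and Atp6ap2 (-0.85), with Atp6v1c1 (0.45) higher. Other hydrolases and activators gave 11 lower and 11 higher of 41, with Gla (-1.60), Gusb (-1.36) and Ppt2 (-1.36) against Acp5 (1.69) and Ctso (1.495) among those higher. Membrane proteins gave 5 lower and 5 higher of 27, with Mcoln2 (-1.71), Ostm1 (-0.57) and Tpcn1 (-0.54) against Abca2 (1.13), Scarb2 (0.66) and Sidt2 (0.64). Other autophagy genes gave 9 lower and 3 higher of 33, with Trp53inp1 (-1.59), Trp53inp2 (-0.99) and Vmp1 (-0.88) against Fyco1 (0.54), Pik3r4 (0.50) and Vps18 (0.43). With the block, which called 65.2% of all genes, 8 V-ATPase genes were lower and 3 higher, 18 hydrolases and activators lower and 13 higher, 11 membrane proteins lower and 8 higher, and 11 other autophagy genes lower and 11 higher.

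Markers of other cells moved with this comparison. The 5 of 18 myeloid markers present in these files summed to 72.6 and 79.8 RPKM in Blimp1-deficient pre-plasmablasts, 34.3 and 35.0 RPKM in control pre-plasmablasts and 44.4 and 37.8 RPKM in activated B cells, and none of the 5 was at 0 in both libraries of a group (in control pre-plasmablasts 2 of them reached 1 RPKM). All 4 tested myeloid markers were higher in Blimp1-deficient than in control pre-plasmablasts, with log2 fold changes of 2.99 (Itgam), 2.26 (Emr1), 2.06 (Tyrobp) and 0.46 (Cd68, itself a lysosomal membrane protein). The 3 erythroid or megakaryocyte markers summed to 14.97 and 13.5 RPKM in Blimp1-deficient pre-plasmablasts, against 3.45 and 4.21 RPKM in control pre-plasmablasts, with Hbb-b1 called higher (2.94). The 4 NK or dendritic cell markers summed to 37.7 and 31.4 RPKM in Blimp1-deficient pre-plasmablasts, against 25.5 and 21.7 RPKM in control pre-plasmablasts, with Flt3 called higher (0.43). The 3 T cell markers summed to 10.2 and 10.4 RPKM in Blimp1-deficient pre-plasmablasts, against 9.62 and 9.15 RPKM in control pre-plasmablasts, with Cd8b1 higher (2.36) and Lat (-0.90) and Cd28 (-0.55) lower. Of 8 B cell markers 5 were higher and 1 lower, and of 8 plasma cell markers 7 were lower. The part of these cells or states in the differences of autophagy and lysosome genes was not tested.

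Set against activated B cells, Blimp1-deficient pre-plasmablasts had 5 of the 40 genes higher and 1 lower, beside 10.4% and 7.6% of all genes (18% together), and a median log2 fold change of 0.23 beside 0.00. With the runs as a block the count was 20 higher and 2 lower, beside 42.7% of all genes called (22.1% higher, 20.6% lower). At least 2-fold higher were 2 of the 40 (Sqstm1 and Ctsb), against 3.53% of all genes, and at least 2-fold lower 0 of the 40, against 1.52%. Sqstm1 had 486 and 536 RPKM in Blimp1-deficient pre-plasmablasts, against 227 and 244 RPKM in activated B cells (1.11 ± 0.10, adjusted p = 0.00114). Ctsb had 113 and 96.6 RPKM in Blimp1-deficient pre-plasmablasts, against 46.9 and 45.2 RPKM in activated B cells (1.17 ± 0.10, adjusted p = 0.00109). Neither gene's groups overlapped, and these 2 calls were the ones that held in every fit with a library left out.

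Gaa had 85.9 and 71.4 RPKM in Blimp1-deficient pre-plasmablasts, against 48.6 and 50.7 RPKM in activated B cells (0.65 ± 0.11, adjusted p = 0.00907). Nbr1 had 24.6 and 26.2 RPKM in Blimp1-deficient pre-plasmablasts, against 16.8 and 19.0 RPKM in activated B cells (0.48 ± 0.12, adjusted p = 0.0357). Ctsz had 598 and 577 RPKM in Blimp1-deficient pre-plasmablasts, against 472 and 433 RPKM in activated B cells (0.38 ± 0.09, adjusted p = 0.0348). These 3 were higher without overlap, and the call of Gaa was lost without the first activated B cell library (adjusted p = 0.066), that of Nbr1 in 6 of 8 such fits and that of Ctsz in all 8. Ctsa, the gene called lower, had 76.5 and 79.3 RPKM in Blimp1-deficient pre-plasmablasts, against 103 and 107 RPKM in activated B cells (-0.43 ± 0.09, adjusted p = 0.0197, and at most 0.113 with a library left out).

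Of the genes that differed most between control pre-plasmablasts and activated B cells, Ctsl, with 5.25 and 3.87 RPKM in Blimp1-deficient pre-plasmablasts and 5.93 and 3.41 RPKM in activated B cells, had overlapping groups and a log2 fold change of -0.00 ± 0.35 (adjusted p = 0.996). Wipi1 gave 0.34 ± 0.16 (adjusted p = 0.195, and 0.0374 with the block), and Ctsd gave 0.78 ± 0.25 (adjusted p = 0.0815, and 3.95e-05 with the block). Tfeb had 111 and 89.0 RPKM in Blimp1-deficient pre-plasmablasts, against 162 and 147 RPKM in activated B cells (-0.63 ± 0.13, adjusted p = 0.0201, and at most 0.123 with a library left out). Tfe3 had 23.5 and 21.0 RPKM in Blimp1-deficient pre-plasmablasts, against 30.1 and 27.7 RPKM in activated B cells (-0.37 ± 0.10, adjusted p = 0.0473). Atg13 had 19.5 and 21.4 RPKM in Blimp1-deficient pre-plasmablasts, against 13.4 and 14.6 RPKM in activated B cells (0.52 ± 0.09, adjusted p = 0.0117). In all 3 the groups were apart. The call of Tfeb was lost without either activated B cell or the second Blimp1-deficient library, that of Atg13 without the first activated B cell or the second Blimp1-deficient library (adjusted p at most 0.0867) and that of Tfe3 without any one of the 8. Map1lc3b, Gabarapl1, Lamp1 and Lamp2 did not pass, with log2 fold changes of 0.07, -0.25, 0.12 and 0.35 (with the block, adjusted p = 0.0112 for Gabarapl1 and 0.00566 for Lamp2).

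In the lists, limma called 0 of 17 V-ATPase genes in this comparison, with 3 higher and 1 lower at an unadjusted p below 0.05, beside 31.1% of all genes, and 9 higher and 1 lower with the block. At an adjusted p below 0.05, 10.4% of all tested genes were higher and 7.6% lower. Of other hydrolases and activators 10 were higher and 1 lower of 41, led by Ppt2 (1.48) and Ctsf (0.93), with Dnase2a (-0.30) lower. Of membrane proteins 8 were higher and 0 lower of 27, led by Mcoln2 (2.37), Laptm4b (1.66) and Cd68 (1.51), which is also a myeloid marker. Other autophagy genes gave 3 higher (Trp53inp1 at 1.13, Dram2 at 0.60 and Wdr45 at 0.47) and 1 lower (Plekhm1 at -0.49) of 33. With the block, 24 hydrolases and activators, 15 membrane proteins and 9 other autophagy genes were higher, and 2 of each of these lists were lower, in a fit that called 42.7% of all genes. Of markers of other cells, Emr1 (0.99), Cd68, Cd8b1 (2.55) and Cd28 (1.60) were higher in Blimp1-deficient pre-plasmablasts than in activated B cells, and Flt3 (-1.01) and Car2 (-0.60) lower, among 11 tested; their part was not tested.

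The inhibitor experiment asked what changes when EZH2 is inhibited during the culture. Of the 40 genes, 5 were higher and 2 lower in GSK343 than in DMSO pre-plasmablasts (limma, own fit), beside 12.7% and 5.86% of the 9479 genes tested (18.6% together), so 12.5% of the genes were higher and 5% lower. The median log2 fold change was 0.05, beside 0.02 over all genes, and no gene of the 40 passed with a change of 2-fold or more, against 2.28% of all genes upward and 0.222% downward.

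Hexa had 101 and 104 RPKM with GSK343, against 60.6 and 53.2 RPKM with DMSO (0.84 ± 0.09, adjusted p = 8.7e-05). Ctsl had 52.3 and 53.3 RPKM with GSK343, against 32.1 and 29.7 RPKM with DMSO (0.75 ± 0.09, adjusted p = 0.00017). Map1lc3a had 35.7 and 36.3 RPKM with GSK343, against 59.2 and 52.5 RPKM with DMSO (-0.62 ± 0.09, adjusted p = 0.000724). The groups of these 3 genes did not overlap, and they are the calls that held in every fit with a library left out. Ctsz had 273 and 259 RPKM with GSK343, against 351 and 349 RPKM with DMSO (-0.39 ± 0.08, adjusted p = 0.00477, and 0.0726 without the second GSK343 library). Its groups were apart as well.

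Atg10 had 2.78 and 3.31 RPKM with GSK343, against 1.19 and 1.96 RPKM with DMSO (0.67 ± 0.17, adjusted p = 0.0172). Gabarapl1 had 47.3 and 49.1 RPKM with GSK343, against 34.6 and 40.5 RPKM with DMSO (0.36 ± 0.10, adjusted p = 0.0245). Atg4b, a protease that processes Atg8 proteins, had 50.9 and 54.3 RPKM with GSK343, against 42.8 and 40.0 RPKM with DMSO (0.34 ± 0.09, adjusted p = 0.0185). All 3 were higher without overlap of the groups, and all 3 calls were lost without either GSK343 library, with adjusted p at most 0.166. Those of Atg10 and Gabarapl1 were also lost without the first DMSO library, and that of Atg4b with median-of-ratios scaling (adjusted p = 0.0506).

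The other key genes did not pass. Sqstm1 had 620 and 607 RPKM with GSK343, against 714 and 688 RPKM with DMSO (-0.19 ± 0.08, adjusted p = 0.123). Map1lc3b had 112 and 114 RPKM with GSK343, against 126 and 114 RPKM with DMSO, and Ctsd had 560 and 575 RPKM with GSK343, against 582 and 489 RPKM with DMSO. Both of these overlapped between the groups, Map1lc3b by its lower DMSO library. Lamp1 had 244 and 255 RPKM with GSK343, against 223 and 208 RPKM with DMSO (adjusted p = 0.0924). Lamp2 had 80.0 and 85.4 RPKM with GSK343, against 73.7 and 64.9 RPKM with DMSO (adjusted p = 0.0701, and 0.00838 without the first DMSO library), so that its groups were apart. Tfeb had 23.9 and 22.7 RPKM with GSK343, against 23.1 and 25.3 RPKM with DMSO, and Tfe3 had 13.9 and 12.8 RPKM with GSK343, against 13.99 and 16.2 RPKM with DMSO.

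**Figure D4:**
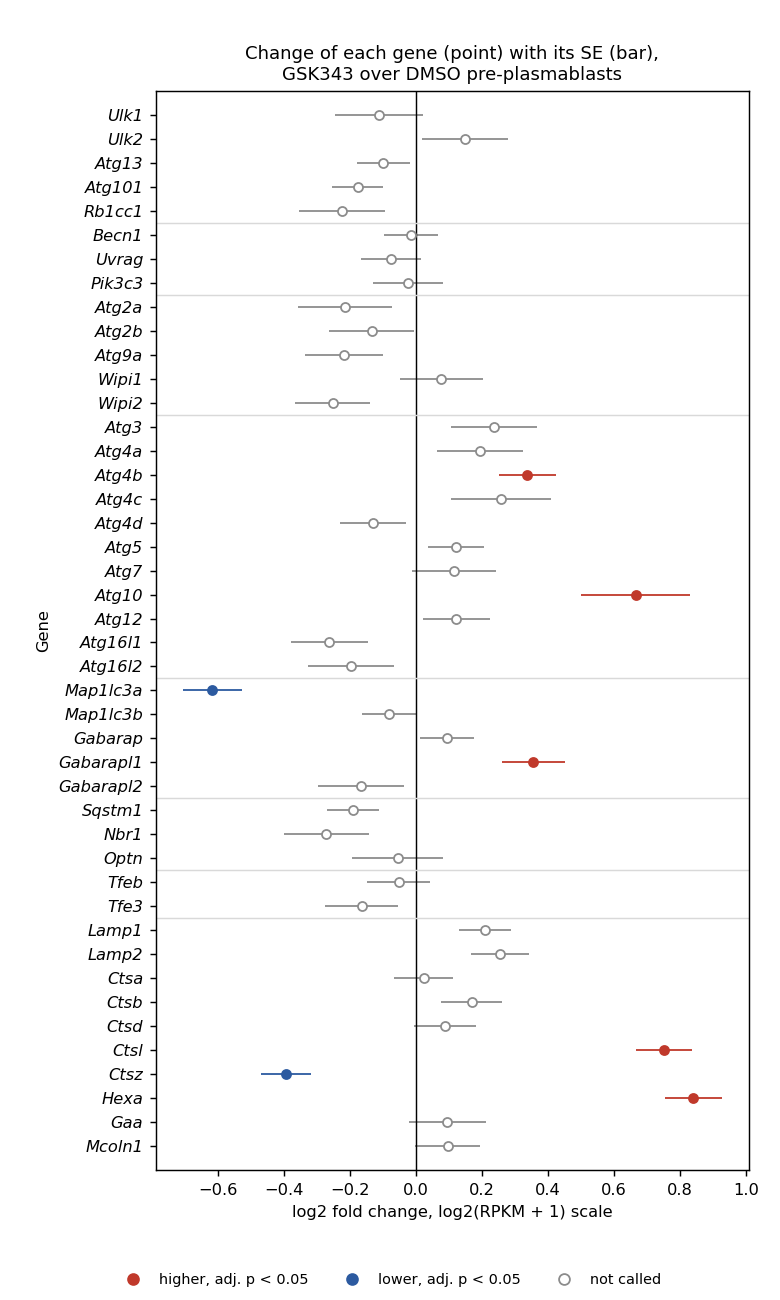
Log2 fold change of each gene (point) with its SE (bar) for GSK343 over DMSO pre-plasmablasts, filled red or blue where the adjusted p was below 0.05. Hexa (0.84), Ctsl (0.75), Atg10 (0.67), Gabarapl1 (0.36) and Atg4b (0.34) are filled to the right of 0, and Map1lc3a (-0.62) and Ctsz (-0.39) to the left.

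The wider pathway is set beside all genes tested, of which 12.7% were higher and 5.86% lower with GSK343. Of 39 other hydrolases and activators 11 were higher and 1 lower, among them Ctso (0.70) and Acp5 (0.68) upward, with the mannosidase gene Man2b1 (-0.60) lower. Of 27 membrane proteins 7 were higher and 2 lower, led by Laptm4b (1.88), Cd63 (1.66) and Abca2 (0.51), with Cd68 (-0.58) and Tmem192 (-0.25) lower. The V-ATPase genes Atp6v1a (0.59) and Atp6v1b2 (0.25) were the 2 higher of 16. Other autophagy genes gave 4 higher and 1 lower of 32, led by Fam134b (0.74), Atg14 (0.53) and Vps41 (0.41), with Wdr45 (-0.30) lower. The 10 T cell markers summed to 10.6 and 11.1 RPKM with GSK343, against 3.40 and 2.96 RPKM with DMSO, with Cd28 at 6.39 and 7.23 RPKM against 1.25 and 1.17 RPKM. The 8 erythroid or megakaryocyte markers in the files summed to 22.2 and 33.5 RPKM with GSK343, against 12.2 and 15.4 RPKM with DMSO, and the 18 myeloid markers to 14.4 and 14.4 RPKM with GSK343, against 17.3 and 17.3 RPKM with DMSO. Cd28 (1.82), Cd14 (1.055), Car2 (0.96) and Lat (0.68) were called higher, and Cd68 and Flt3 (-0.395) lower. Among plasma cell markers Sdc1 (1.25) and Tnfrsf17 (0.89) were higher, and Irf4 (-0.51) and Slamf7 (-0.36) lower. Their part in the differences was not tested.

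Plasma cells taken directly from mice have files of their own, so their levels are set beside those of plasmablasts and DMSO pre-plasmablasts without a test. All RPKM values of a library summed to 436626 and 432242 in plasma cells and 616369 and 624581 in DMSO pre-plasmablasts. In plasmablasts, whose files list fewer genes, they summed to 453959 and 449137. The 40 genes had a median of 26.2 RPKM in plasma cells, 23.8 RPKM in plasmablasts and 20.0 RPKM in DMSO pre-plasmablasts. Wipi1 stood at 105 and 99.5 RPKM in plasma cells, 16.0 and 16.5 RPKM in plasmablasts and 9.11 and 11.3 RPKM in DMSO pre-plasmablasts. Ctsb stood at 316 and 298 RPKM in plasma cells, 178 and 171 RPKM in plasmablasts and 163 and 137 RPKM in DMSO pre-plasmablasts. For both genes the plasma cell libraries were above every cultured library of the series.

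Lamp2 was at 38.5 and 36.3 RPKM in plasma cells, 141 and 181 RPKM in plasmablasts and 73.7 and 64.9 RPKM in DMSO pre-plasmablasts. Optn was at 2.50 and 1.802 RPKM in plasma cells, 13.3 and 11.1 RPKM in plasmablasts and 6.04 and 7.13 RPKM in DMSO pre-plasmablasts. Both were lower in plasma cells than in any cultured library. Ctsz, at 307 and 284 RPKM in plasma cells and 957 and 942 RPKM in plasmablasts, had 351 and 349 RPKM in DMSO pre-plasmablasts and 885 and 898 RPKM in control pre-plasmablasts. So Ctsz values were very different between these similarly gated cells, whose genotype, treatment, experiment and kind of file differ together and cannot be told apart.

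Among the remaining genes, Sqstm1, Ctsd, Lamp1 and Ctsl were lower in both plasma cell libraries than in those of plasmablasts and of DMSO pre-plasmablasts. Sqstm1 was at 457 and 377 RPKM in plasma cells, against means of 669 RPKM in plasmablasts and 701 RPKM in DMSO pre-plasmablasts. Ctsd was at 250 and 232 RPKM, against means of 398.5 and 535.5 RPKM in those groups. Lamp1 was at 193 and 161 RPKM, against 225.5 and 215.6 RPKM, and Ctsl at 23.0 and 17.7 RPKM, against 30.95 and 30.92 RPKM. Map1lc3b was at 94.5 and 80.7 RPKM in plasma cells, above the 64.6 and 54.9 RPKM of plasmablasts but below the 126 and 114 RPKM of DMSO pre-plasmablasts. Gabarapl1 was at 24.6 and 20.9 RPKM in plasma cells and overlapped plasmablasts. Atg13, at 68.2 and 70.2 RPKM, was above all cultured libraries, while Tfeb, at 30.0 and 25.0 RPKM, lay close to the 31.0 and 31.3 RPKM of plasmablasts, and Tfe3 was at 32.0 and 32.3 RPKM. The 18 myeloid markers summed to 164 and 119 RPKM in plasma cells, with 12 of them at 1 RPKM or more, among them S100a9 at 46.1 and 14.9 RPKM, and 1 of 18 at 0 in both libraries. The 10 T cell markers summed to 81.2 and 72.7 RPKM in plasma cells, against 3.40 and 2.96 RPKM in DMSO pre-plasmablasts, most of it from the sort marker Cd28 at 57.2 and 55.4 RPKM in plasma cells, with Cd4 at 12.8 and 8.87 RPKM, Cd3e at 0.197 and 0.123 RPKM and Trat1 at 0. The 8 erythroid or megakaryocyte markers in the files summed to 59.3 and 33.6 RPKM in plasma cells, against 12.2 and 15.4 RPKM in DMSO pre-plasmablasts, with Hbb-b1 at 48.8 and 27.2 RPKM in plasma cells. The 9 NK or dendritic cell markers summed to 2.82 and 2.63 RPKM in plasma cells, against 18.8 and 20.2 RPKM in DMSO pre-plasmablasts. Their part in the levels of lysosomal genes was not tested.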

How the data were processed

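RNA was measured by strand-specific poly(A) sequencing with 50-nt reads, per the labels' protocols. The submitters' processing notes name the genome build mm9 and the tools DESeq 1.8.3, SICER, HTSeq 0.5.3 and TopHat 1.4.1. Neither the gene annotation nor the use of strand in counting is stated there. The deposited files hold RPKM values that the authors computed, GC-normalized for the 4 groups of the Cd23 Cre/+ cultures. Plasma cell files list 5 read-counter summary names that shift names against values; these were dropped, after which all 88 checks over 44 genes and 2 libraries placed each gene's values best at no shift (r between 0.735 and 0.967).

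The GC-normalized values have no recoverable read steps, so their depth is unknown. In the inhibitor files, relative depth against the first DMSO library was 0.848 for the second DMSO library and 1.008 and 0.832 for those with GSK343. Every gene that reached 1 RPKM in 2 or more libraries of a fit was tested with limma 3.58.1 (R 4.3.3; lmFit and eBayes with a mean-variance trend) on log2(RPKM + 1), two-sided, with Benjamini-Hochberg adjustment over all genes tested and a threshold of 0.05. Fold changes on that scale understate those of low genes. The 8 GC-normalized libraries shared 1 fit and the 4 inhibitor libraries another. Plasma cells were not tested against other files. The fit was also run on simulated data whose noise was independent between libraries. Those data lacked the shared deviation within runs given below, so they do not show how the fit behaves with it.

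The library numbers in the titles fall into 2 ranges, here called runs, with 1 library of each group per run. No label names a run or says what the ranges stand for. Deviations from group means correlated within runs at 0.666 to 0.781 (Pearson's r across 10473 genes) in all 6 pairs of groups, so a fit with the runs as a block was added. Other alternatives were 2 pseudocounts, 2 filters, median-of-ratios scaling, no trend, only the groups compared, and each library left out. The genes and lists were chosen with earlier results of these data known. Named were all genes by role, with every library for 8 key genes and for the 5 largest calls in each direction per comparison, and the 3 largest in each direction in each pathway list, except for results not reported here. Promoter windows came from RefSeq. Python 3.11.15 with pandas 2.3.3 made the tables.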

Additional observations from a re-analysis of the deposited data

How the results depend on the processing

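Counts of genes called were compared with the reported count, with a limit of 1.5 times. The median plasma cell level was compared with the reported median, with a limit of 1 SD between the medians of its 2 libraries. Together, 143 of these values stayed within the limit under an alternative and 40 did not. The log2 fold changes of the genes called in a comparison and of 8 key genes (Sqstm1, Map1lc3b, Gabarapl1, Lamp1, Lamp2, Ctsd, Tfeb and Tfe3) kept direction and side of the threshold in 1513 cases, lost the call in 169, gained one in 14 and changed sign in 8. Leaving out 1 library gave 13 to 16 genes higher and 1 to 3 lower in pre-plasmablasts against activated B cells, 0 either way in plasmablasts against pre-plasmablasts, 17 to 18 higher and 2 to 7 lower in plasmablasts against activated B cells, 2 to 4 higher and 8 to 13 lower in Blimp1-deficient against control pre-plasmablasts, 2 to 4 higher and 0 to 1 lower in Blimp1-deficient pre-plasmablasts against activated B cells, and 2 to 6 higher and 1 to 2 lower with GSK343 against DMSO. With the library runs as a block, the fit called 7 higher and 4 lower in plasmablasts against pre-plasmablasts, 9 lower in plasmablasts against activated B cells, 7 higher in Blimp1-deficient against control pre-plasmablasts, and 20 higher and 2 lower in Blimp1-deficient pre-plasmablasts against activated B cells. The block lost no call and, among all 40 genes, added 9 calls in pre-plasmablasts and 8 in plasmablasts against activated B cells, 11 in plasmablasts against pre-plasmablasts, and 7 and 16 in Blimp1-deficient pre-plasmablasts against control pre-plasmablasts and activated B cells. Median-of-ratios scaling left 1 gene lower in pre-plasmablasts and 3 in plasmablasts against activated B cells, and with only the 2 groups compared in the fit 2 were lower in pre-plasmablasts, and 3 were higher and 0 lower in Blimp1-deficient pre-plasmablasts, against activated B cells. A pseudocount of 4 gave 1 gene higher in plasmablasts against pre-plasmablasts; with GSK343, no filter gave 2 higher and no trend 3. For plasma cell levels with names as deposited the median of the 40 genes was 10.5 RPKM, against 26.2 RPKM, because names and values are then shifted. For changes of count not due to fewer samples or shifted names, the cause was not tested. Shares of all genes called were computed for the reported fit, the block and the scaling, and not for the other alternatives. Counts of the 40 genes in those other fits therefore cannot be set beside all genes.

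In plasmablasts against pre-plasmablasts, the log2 fold change of Tfe3 turned to 0.005 with scaling, and without 1 library that of Gabarapl1 ran between -0.283 and 0.04, of Lamp1 between -0.013 and 0.117 and of Ctsd between -0.056 and 0.451. With GSK343, that of Tfeb ran between -0.115 and 0.011 and of Ctsd between -0.038 and 0.214. None of these was called. No paired analysis was possible for the inhibitor experiment because its labels carry no pairing. Read depth behind the GC-normalized values is unknown, so no counting interval could be given.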
